A study of Mus musculus with 9 samples.

Results

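Collagen chain genes encode the polypeptides from which collagens are built, and 38 of them were examined in stromal cells sorted from mouse bone marrow after treatment with G-CSF (granulocyte colony-stimulating factor). A gene was included when a probe set of the deposited table carried its symbol and no other, and each of the 38 had exactly 1 such probe set, among 19938 genes measured by 21789 such probe sets. The cells were CXCL12-abundant reticular (CAR) cells, the stromal cells that produce most of the chemokine Cxcl12 in marrow. They were sorted as lineage-negative cells bright for green fluorescent protein from Cxcl12+/gfp mice, which carry that protein at the Cxcl12 locus of 1 chromosome, so treated and control mice alike had a modified Cxcl12 allele. The G-CSF group had 5 arrays of mice given 250 µg/kg per day for 5 days, and the PBS group had 4 arrays of mice given phosphate-buffered saline alone over the same time. The titles call the arrays of each group biological replicates. The sources give neither the age of the mice nor whether cells of several mice were pooled. No label ties an array to an animal, so each p-value reflects array-to-array spread, which may be partly technical. The comparison asks how G-CSF, a cytokine that drives neutrophil production and moves stem cells out of the marrow, alters stromal cells that sustain B lymphopoiesis.

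Collagens are secreted or membrane-bound trimers, made of identical chains or of partner chains that must be produced together, wound into a helix of repeated glycine-containing units. Fibrillar collagens such as I, III and V form the fibres of bone and connective tissue, collagen IV forms the network of basement membranes, and collagen VI forms beaded filaments around cells. FACIT collagens such as XII attach to the surface of fibrils, while II, IX, X and XI belong mainly to cartilage. In marrow, stromal and bone-forming cells are known as the main producers of collagen I, and vessels are lined by collagen IV.

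Values are log2 RMA intensities, on which 1 unit is a 2-fold difference, given as mean ± SD over arrays. Changes are G-CSF minus PBS with the standard error (SE) of a limma fit over all 21789 probe sets, and a gene passed the threshold when its p, adjusted by Benjamini-Hochberg over all of them, was under 0.05. The sorted cells carried the defining transcripts of CAR cells, with Cxcl12 at 11.99 ± 0.07 in G-CSF and 12.35 ± 0.11 in PBS and Lepr at 11.33 ± 0.26 in G-CSF and 11.55 ± 0.21 in PBS, both in the top 1% of probe sets by intensity (percentiles 99.9 and 99.8). The source name of every sample speaks of CFU-PreB colonies, with Hspa9+/- for G-CSF replicates 2 to 5 and a wild-type littermate for the other 5 arrays, which titles and protocols contradict, and groups follow the titles. On the first principal component (34.9% of the variance) the arrays fell into 2 sets, each holding both groups. G-CSF replicates 1 to 3 and PBS replicates 1 and 2 formed set 1, and G-CSF replicates 4 and 5 and PBS replicates 3 and 4 formed set 2. PBS replicate 3 lay farthest out, at -56.5 on that component where the next array of its set was at -22.5, and its interquartile range of 2.45 was the narrowest of the 9 arrays. G-CSF replicates 4 and 5 were the most alike, at a correlation of 0.988 across genes. No label names a batch, so the larger changes are also given set by set. The sets were drawn from these same intensities. Fits with the set as a block are therefore a description and no independent support.

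Among the 38 collagen genes, 4 rose and 0 fell after G-CSF, while 34 did not pass the threshold. The 4 were Col6a3 (3.33-fold), Col12a1 (2.87-fold), Col1a1 (2.57-fold) and Col3a1 (1.60-fold), which encode chains of the beaded filament collagen VI, of the fibril-associated collagen XII and of the fibrillar collagens I and III. Among all probe sets, 0.743% rose and 0.877% fell (1.62% in either direction). The G-CSF arrays all lay above the PBS arrays for 6 of the 38, those 4 with Col6a1 and Col6a2, against 2.18% of all probe sets, and all below for 1, Col11a1, against 2.46%. The median change of the 38 was 0.03, and that of all probe sets was 0.01. At an unadjusted p under 0.05 the limma counts were 6 of 38 higher, against 4.41% of all probe sets, and 1 of 38 lower (Col11a1), against 4.81%. In these sorted populations, more cells of a type and more RNA per cell cannot be told apart.

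**Figure D1:**
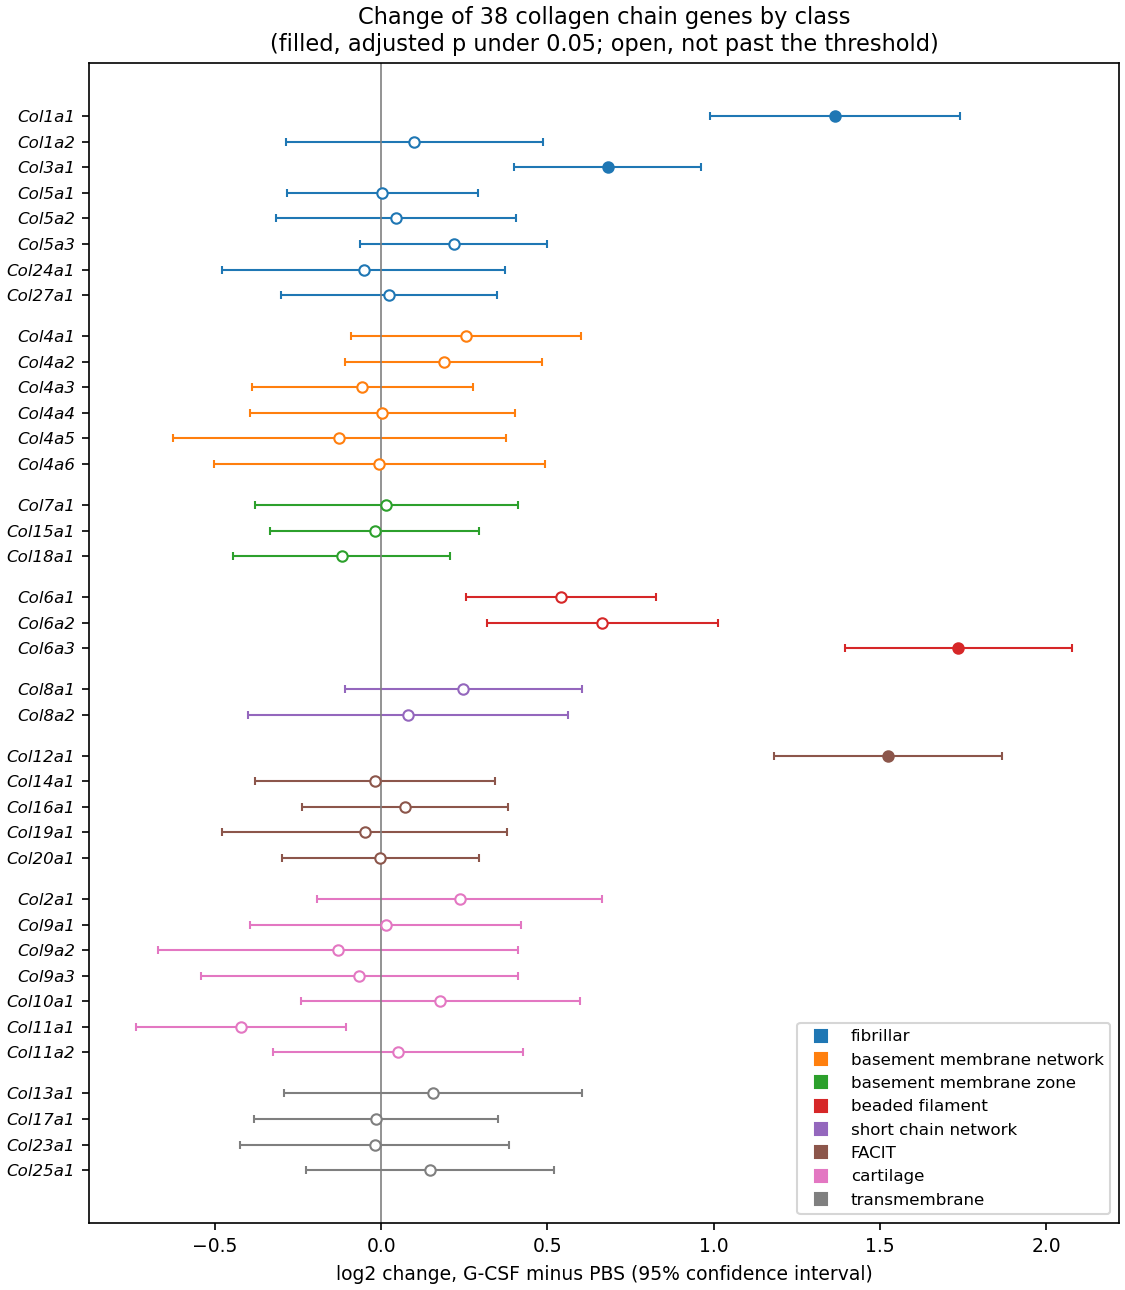
Change of each of the 38 collagen chain genes (G-CSF minus PBS, log2, horizontal axis) with its 95% confidence interval, grouped and coloured by structural class. Filled points passed an adjusted p of 0.05 (Col6a3, Col12a1, Col1a1 and Col3a1), and open points did not. Col6a1, Col6a2 and, below 0, Col11a1 are the open points whose intervals exclude 0.

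Of the 3 genes of the beaded filament collagen VI, Col6a3 rose, while Col6a1 and Col6a2 did not pass although their groups did not overlap. Collagen VI is assembled from an alpha1, an alpha2 and an alpha3 chain, and Col6a3 encodes the alpha3 chain, the largest of them. Col6a3 was at 7.58, 7.74, 7.83, 7.92 and 7.93 in the G-CSF arrays, against 5.90, 5.89, 6.005 and 6.45 in the PBS arrays. The lowest G-CSF array stood more than 1 log2 unit above the highest PBS array. Its mean was 7.80 ± 0.14 in G-CSF (n = 5) and 6.06 ± 0.27 in PBS (n = 4), a change of 1.74 (SE 0.16, limma adjusted p = 0.000119). The change was 1.82 in array set 1 and 1.69 in array set 2, and it passed the limma threshold in each set alone (adjusted p = 0.00437 and 0.0463), where 0.33% and 0.17% of all probe sets rose.

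Col6a1 and Col6a2, which encode the alpha1 and alpha2 chains, were separated between the groups in every array without passing the threshold. Col6a1 was at 9.44, 9.63, 9.58, 9.37 and 9.32 in the G-CSF arrays, against 9.05, 8.91, 8.86 and 8.88 in the PBS arrays (change 0.54, SE 0.13, limma adjusted p = 0.0702). Col6a2 was at 8.73, 9.02, 8.86, 8.63 and 8.50 in the G-CSF arrays, against 8.40, 8.004, 8.07 and 7.86 in the PBS arrays (change 0.66, SE 0.16, limma adjusted p = 0.0670). With the array set as a block, both passed (limma adjusted p = 0.0301 for Col6a1 and 0.0244 for Col6a2). With the block 1.32% of all probe sets rose, against 0.743% without it. The block was drawn from these same intensities, so these calls are a description. Without the block, the 95% intervals of Col6a1 and Col6a2 were 0.25 to 0.83 and 0.32 to 1.01. The alternative collagen VI chain genes Col6a4, Col6a5 and Col6a6, which can stand in for alpha3 in other tissues, changed by 0.78, -0.10 and -0.12 and did not pass (adjusted p = 0.109, 0.977 and 0.960).

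**Figure D2:**
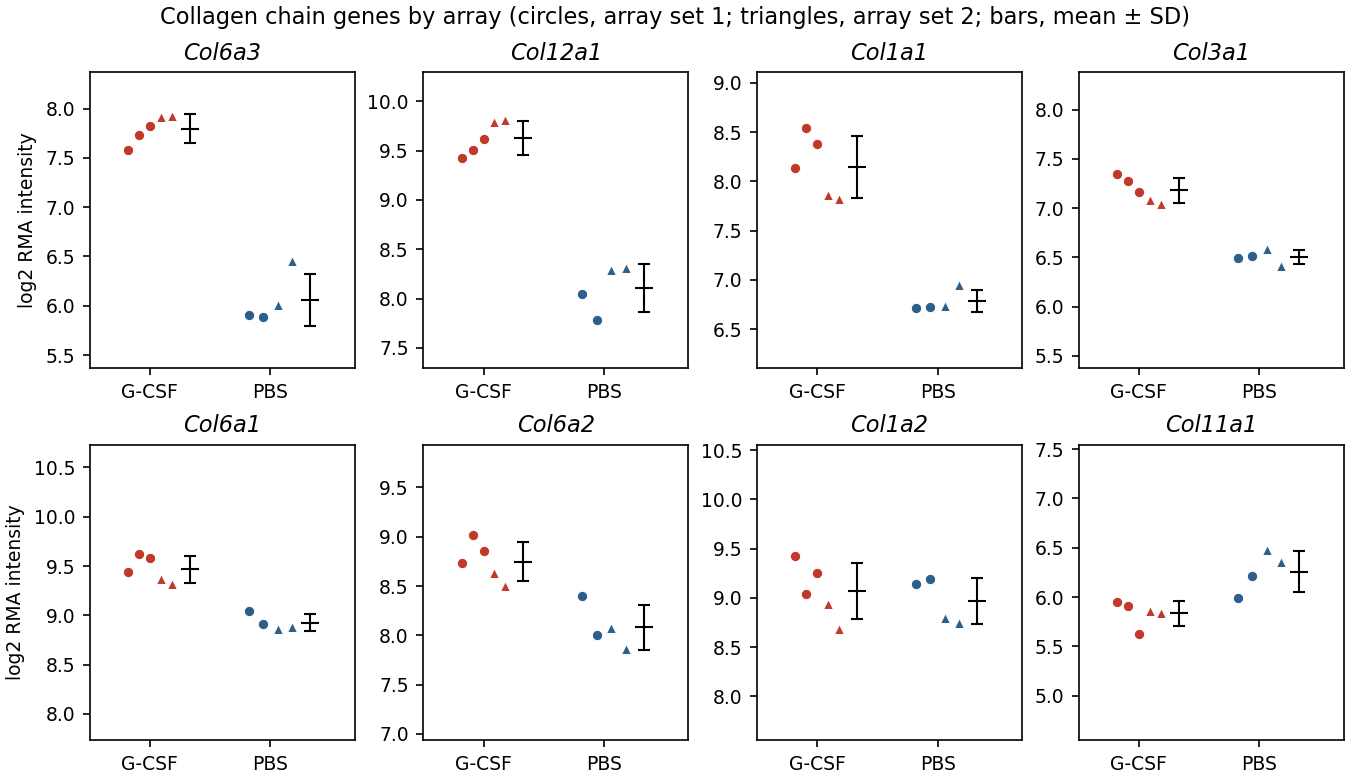
Log2 RMA intensity (vertical axis, the same 3-unit span in every panel) of 8 collagen chain genes on each array, with G-CSF arrays in red at the left and PBS arrays in blue at the right. Circles are array set 1, triangles are array set 2, and black bars give the mean ± SD. The groups do not overlap except for Col1a2, and Col11a1 is lower in G-CSF.

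Among the FACIT collagens, Col12a1 rose and the other 4 genes did not pass. Col12a1 encodes collagen XII, a homotrimer that binds collagen I fibrils and is abundant in periosteum, tendon and ligament. Its intensities were 9.42, 9.50, 9.62, 9.80 and 9.81 in the G-CSF arrays, against 8.05, 7.78, 8.29 and 8.31 in the PBS arrays. No array came between 8.31 and 9.42. The mean was 9.63 ± 0.17 in G-CSF and 8.11 ± 0.25 in PBS (change 1.52, SE 0.16, limma adjusted p = 0.000383), and the change was 1.60 in array set 1 (adjusted p = 0.00930) and 1.51 in array set 2 (adjusted p = 0.0406). Col14a1, the gene of another fibril-associated collagen with a structure like that of XII, changed by -0.02, with a 95% interval of -0.38 to 0.34. Col16a1, Col19a1 and Col20a1 changed by 0.07, -0.05 and 0.00, and their groups overlapped. The class median was 0.00.

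In the fibrillar class of 8 genes, Col1a1 and Col3a1 rose and 6 did not pass. Col1a1 encodes the alpha1 chain of collagen I, a pair of which joins a single alpha2 chain in the usual molecule. Col1a1 was at 8.14, 8.54, 8.38, 7.87 and 7.82 in the G-CSF arrays, against 6.72, 6.73, 6.74 and 6.95 in the PBS arrays. The PBS arrays lay within 0.23 of each other, while the G-CSF arrays spread over 0.73. The mean was 8.15 ± 0.32 in G-CSF and 6.78 ± 0.11 in PBS (change 1.36, SE 0.17, limma adjusted p = 0.00157). The change was 1.63 in array set 1 (adjusted p = 0.0106) and 1.00 in array set 2, where it did not pass (adjusted p = 0.154).

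Col1a2, which encodes the alpha2 chain of the same molecule, showed no such separation. Its intensities were 9.43, 9.04, 9.25, 8.94 and 8.69 in the G-CSF arrays, against 9.14, 9.20, 8.79 and 8.75 in the PBS arrays. Both the highest and the lowest array belonged to the G-CSF group. The change was 0.10 (SE 0.18, limma adjusted p = 0.973), with a 95% interval of -0.29 to 0.49 that excludes a rise as large as that of Col1a1. Its values followed the array sets, being lower in set 2 than in set 1 within each group.

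Col3a1 encodes the chain of collagen III, a homotrimer that accompanies collagen I in soft tissues and reticular fibres. It was at 7.34, 7.28, 7.17, 7.08 and 7.05 in the G-CSF arrays, against 6.49, 6.52, 6.59 and 6.41 in the PBS arrays. All G-CSF arrays exceeded the highest PBS array by at least 0.46. The mean was 7.18 ± 0.13 in G-CSF and 6.50 ± 0.07 in PBS (change 0.68, SE 0.13, limma adjusted p = 0.0201). This call was the least secure of the 4. It was lost when any 1 of PBS replicates 1, 2 and 4 or G-CSF replicates 1 and 2 was left out, with a highest adjusted p of 0.0670 (PBS replicate 4 left out), while the change itself stayed between 0.64 and 0.71. The change was 0.76 in array set 1 and 0.56 in array set 2 and passed in neither (adjusted p = 0.0991 and 0.448).

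The genes of collagen V, which sets the diameter of collagen I fibrils, did not pass. Col5a1 was at 6.63, 6.72, 6.75, 6.78 and 6.82 in the G-CSF arrays, against 6.70, 6.53, 6.84 and 6.88 in the PBS arrays (change 0.00, 95% interval -0.28 to 0.29). Col5a2 was at 7.17, 6.67, 7.49, 7.17 and 7.21 in the G-CSF arrays, against 7.07, 7.22, 7.07 and 7.03 in the PBS arrays (change 0.04, 95% interval -0.32 to 0.41). Their intensities overlapped between the groups, and a change of the size seen for Col3a1 lies outside both intervals. Col5a3, Col24a1 and Col27a1 changed by 0.22, -0.05 and 0.02 and also overlapped.

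The upstream sequences of Col6a3 and Col3a1, which rose, of Col6a1, a partner of Col6a3, and of Col1a2, the collagen I partner that did not pass, are shown because the data separate these genes. Each is the run of 250 bases directly before the annotated start, from RefSeq on GRCm38.p6, at chr1:90843972-90844221 (minus strand) for Col6a3, chr1:45311288-45311537 (plus strand) for Col3a1, chr10:76726045-76726294 (minus strand) for Col6a1 and chr6:4505368-4505617 (plus strand) for Col1a2. Capitals mark exact matches on either strand to the CCAAT box (letters CCAAT), the TATA box (letters TATAAA) and the GC box (letters GGGCGG).
Col6a3: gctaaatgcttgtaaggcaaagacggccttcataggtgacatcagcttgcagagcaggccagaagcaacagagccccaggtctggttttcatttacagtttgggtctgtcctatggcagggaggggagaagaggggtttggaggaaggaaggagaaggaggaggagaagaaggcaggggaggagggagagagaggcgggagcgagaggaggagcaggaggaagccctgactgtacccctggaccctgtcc
Col3a1: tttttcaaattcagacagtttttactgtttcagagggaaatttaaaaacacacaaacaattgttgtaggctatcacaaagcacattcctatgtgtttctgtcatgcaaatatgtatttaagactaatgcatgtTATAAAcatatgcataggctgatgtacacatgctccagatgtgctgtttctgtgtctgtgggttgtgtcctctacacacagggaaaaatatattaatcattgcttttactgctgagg
Col6a1: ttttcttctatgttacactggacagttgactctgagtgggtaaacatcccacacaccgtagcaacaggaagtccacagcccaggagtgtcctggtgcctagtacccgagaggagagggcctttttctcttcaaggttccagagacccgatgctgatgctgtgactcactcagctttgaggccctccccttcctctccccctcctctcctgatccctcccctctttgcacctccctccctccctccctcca
Col1a2: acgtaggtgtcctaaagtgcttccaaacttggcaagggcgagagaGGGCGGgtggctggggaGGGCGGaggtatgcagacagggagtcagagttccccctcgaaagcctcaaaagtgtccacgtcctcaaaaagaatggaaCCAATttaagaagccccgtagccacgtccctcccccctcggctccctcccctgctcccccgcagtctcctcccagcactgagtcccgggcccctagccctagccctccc
Col1a2 held CCAAT from 109 bases before the start and GGGCGG from 205 and 188 bases before it, and Col3a1 held TATAAA from 117 bases before it. Col6a3 and Col6a1 held none of these motifs in the window. The window of Col3a1 was poor in G and C (35.2%), against 57.2% for Col6a3, 56.0% for Col6a1 and 62.0% for Col1a2. Windows were at hand for 31 of the 38 genes, 34 in all. Col1a1 and Col12a1, which also rose, had none. CCAAT was in 12 of the 34 (35.3%) and in 33.8% of all 32851 windows of that length, TATAAA in 5 (14.7%) and 12.4%, and GGGCGG in 19 (55.9%) and 32.7%. The median share of G and C was 59.4% over the 34 windows and 52.4% over all 32851, and its part in the GGGCGG counts was not tested. These matches are a description of the letters and were not tied to the changes.

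None of the 6 collagen IV genes or the 3 other genes of the basement membrane zone passed the threshold. Col4a1 and Col4a2 encode the chains of the common basement membrane network. Col4a1 was at 8.62, 8.35, 8.34, 8.21 and 8.13 in the G-CSF arrays, against 8.19, 8.32, 7.76 and 8.03 in the PBS arrays (change 0.25, limma adjusted p = 0.761). Col4a2 was at 7.19, 6.96, 7.12, 7.29 and 7.32 in the G-CSF arrays, against 6.99, 6.82, 7.09 and 7.06 in the PBS arrays (change 0.19, limma adjusted p = 0.819). Both were higher on average in G-CSF, but the groups overlapped. Their annotated starts lie 21 bases apart on opposite strands of mouse chromosome 8. Col4a3, Col4a4, Col4a5 and Col4a6, whose chains form the networks of kidney, lung and other specialised membranes, changed by -0.13 to 0.00.

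Col15a1 and Col18a1 encode the multiplexins of vessel basement membranes, and the end piece of the Col18a1 product is endostatin. Col15a1 was at 5.07, 4.97, 5.05, 5.35 and 5.26 in the G-CSF arrays, against 4.94, 5.15, 5.19 and 5.36 in the PBS arrays. Col18a1 was at 5.44, 5.71, 5.55, 5.86 and 5.89 in the G-CSF arrays, against 5.74, 5.61, 5.97 and 5.92 in the PBS arrays. Their changes of -0.02 and -0.12 were within the spread of either group. Col7a1, the gene of the anchoring fibrils of skin, changed by 0.02.

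Of the 7 cartilage genes, 0 passed. Col11a1 encodes a chain of the thin fibrils of cartilage and is also made by osteoblast precursors. It was at 5.95, 5.91, 5.62, 5.86 and 5.83 in the G-CSF arrays, against 5.99, 6.21, 6.47 and 6.35 in the PBS arrays. Each G-CSF array was lower than each PBS array, but by only 0.03 at the closest, and the change of -0.42 (SE 0.15) did not pass (limma adjusted p = 0.277). Its 95% interval was -0.74 to -0.11. Col2a1, the main fibril chain of cartilage, was at 5.68, 6.07, 5.82, 6.20 and 6.12 in the G-CSF arrays, against 5.37, 5.43, 6.18 and 5.99 in the PBS arrays (change 0.24, limma adjusted p = 0.868). Col10a1, made by hypertrophic chondrocytes, was at 5.81, 5.81, 5.05, 5.55 and 5.64 in the G-CSF arrays, against 5.07, 5.26, 5.52 and 5.71 in the PBS arrays (change 0.18, limma adjusted p = 0.919). The groups overlapped for both. Col9a1, Col9a2, Col9a3 and Col11a2 changed by 0.01, -0.13, -0.07 and 0.05.

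The short chain network genes Col8a1 and Col8a2, whose products occur in vessel walls and in the cornea, did not pass. Col8a1 gave the brightest probe set of the 38 and was at 10.04, 9.97, 10.07, 10.40 and 10.31 in the G-CSF arrays, against 9.90, 9.54, 10.06 and 10.14 in the PBS arrays (change 0.25, limma adjusted p = 0.791). Brightness differs between probe sets for reasons of sequence, so it does not rank transcripts. Col8a2 changed by 0.08. The transmembrane collagens Col13a1, Col17a1, Col23a1 and Col25a1 changed by 0.16, -0.01, -0.02 and 0.15, all with overlapping groups. Apart from the 4 that rose and the 3 that were separated without passing, the remaining 31 genes changed by -0.13 to 0.25, with 95% intervals that together reach from -0.67 to 0.67.

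Whether partner chains moved alike was examined as the difference of their log2 intensities within each array, which removes anything that shifts both probe sets equally. The absolute size of such a difference depends on the probes, and only its change between groups is read. In 3 of 14 pairs the difference changed past an adjusted p of 0.05 in an exact two-sided permutation test over the 14 pairs. Col1a1 minus Col1a2 was -1.29, -0.49, -0.87, -1.08 and -0.87 in the G-CSF arrays, against -2.42, -2.47, -2.06 and -1.79 in the PBS arrays. The ratio of the alpha1 to the alpha2 transcript was thus higher in every G-CSF array than in any PBS array. On average the log2 ratio was higher by 1.26 (exact permutation p = 0.00794, adjusted p = 0.0370, n = 5 and 4). The shift was 1.56 in array set 1 and 0.95 in array set 2, and 1.16 to 1.39 with any 1 array left out.

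In collagen VI, the difference between Col6a3 and each partner was also higher after G-CSF. Col6a3 minus Col6a1 was -1.86, -1.89, -1.75, -1.45 and -1.39 in the G-CSF arrays, against -3.14, -3.03, -2.85 and -2.43 in the PBS arrays, a shift of 1.19. Col6a3 minus Col6a2 was -1.15, -1.28, -1.03, -0.72 and -0.57 in the G-CSF arrays, against -2.50, -2.12, -2.07 and -1.40 in the PBS arrays, a shift of 1.07. The groups were apart in both, and each had an exact permutation p of 0.00794 (adjusted p = 0.0370), the smallest that 5 against 4 arrays allow. These 2 pairs share Col6a3 and are not independent. Col1a1 minus Col1a2 had the same smallest p, and the adjusted p of 0.0370 rests on all 3 pairs being tied there. Col6a1 minus Col6a2 shifted by -0.12 (exact permutation p = 0.175, adjusted p = 0.407), with a difference of 0.72 ± 0.08 in G-CSF and 0.84 ± 0.16 in PBS, and the groups overlapped. The pair Col11a1 and Col11a2 shifted by -0.47 and did not pass (exact permutation p = 0.0317, adjusted p = 0.111). The remaining 9 pairs, of collagens IV, V, VIII and IX, shifted by -0.21 (Col5a1 against Col5a3) to 0.17 (Col8a1 against Col8a2), with adjusted p of 0.289 to 0.786 in the exact permutation test.

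**Figure D3:**
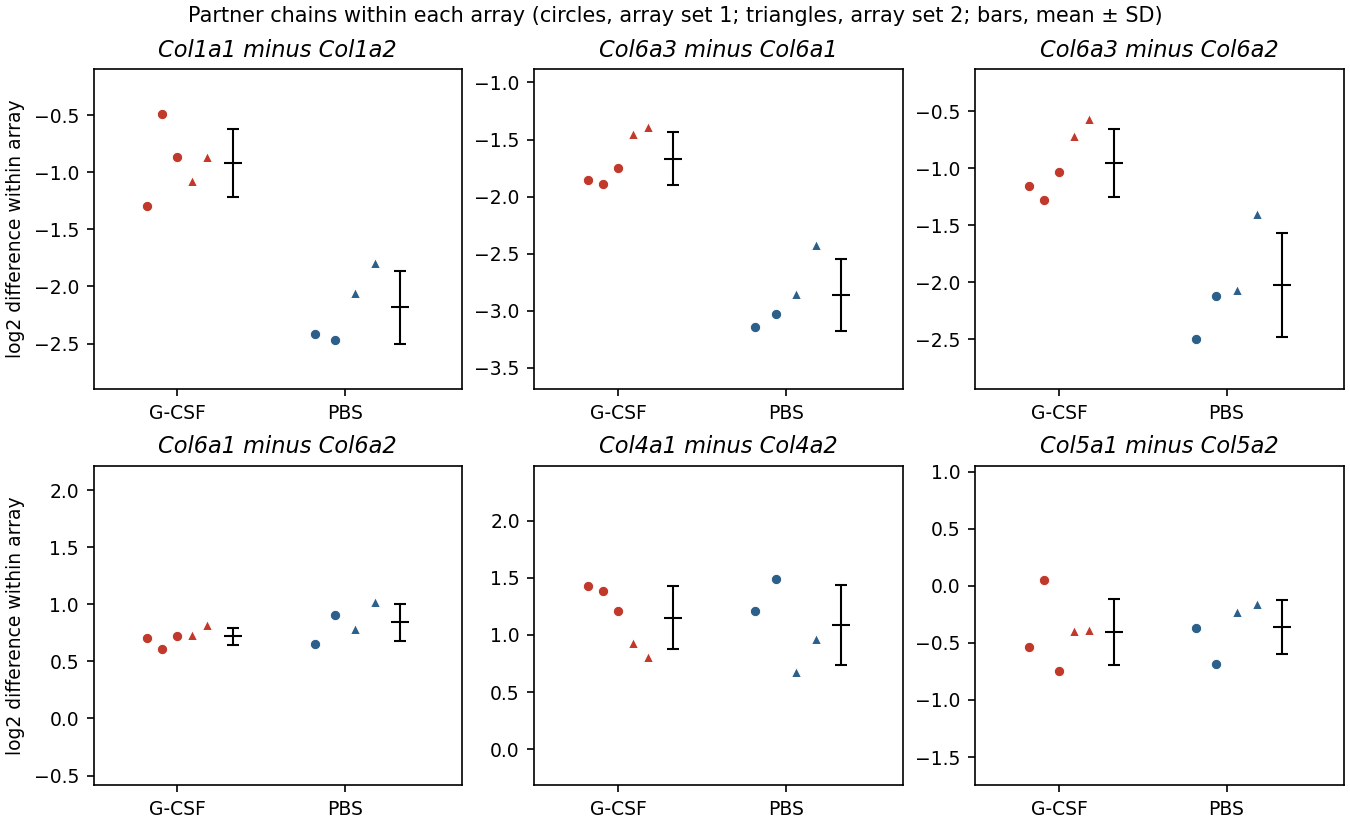
Difference of the log2 intensities of partner chains within each array (vertical axis, the same 2.8-unit span in every panel) for 6 of the 14 pairs, with G-CSF arrays in red at the left and PBS arrays in blue at the right. Circles are array set 1, triangles are array set 2, and bars give the mean ± SD. Col1a1 minus Col1a2 and both differences of Col6a3 are higher in all G-CSF arrays, while the lower 3 panels overlap.

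The array sets were drawn from the same intensities, so differences between them are given as a description. The log2 interquartile range of every set 2 array (2.45 to 2.76) was narrower than that of any set 1 array (2.79 to 2.99). What part this had in the differences below was not tested. In 25 of the 38 genes, both set 2 arrays exceeded all set 1 arrays within the G-CSF group and within the PBS group alike, as did 13.0% of all probe sets. This held for 10 of the 11 genes whose probe sets were no brighter than the median of all probe sets, against 16.4% of all probe sets that dim, and for 15 of the 27 brighter ones, against 9.6% of all brighter probe sets. Col1a2, Col4a1 and Col6a1 ran the other way, lower in set 2 in both groups, as did 8.52% of all probe sets. The median set 2 minus set 1 difference was 0.31 over the 38, against 0.10 over all probe sets, and 0.41 over the 11 dim ones, against 0.19 over all dim probe sets. Col9a2 had the largest, at 0.74, and Col1a2 the lowest, at -0.41. The 11 dim probe sets changed by -0.13 to 0.15 between treatments, and 0 of them passed. RMA values carry no detection call, so whether such genes were expressed was not settled. Among the genes that rose, Col6a3 and Col12a1 had set 2 minus set 1 differences of 0.27 and 0.34, and Col1a1 and Col3a1 of -0.20 and -0.10, each smaller in size than its treatment change.

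**Figure D4:**
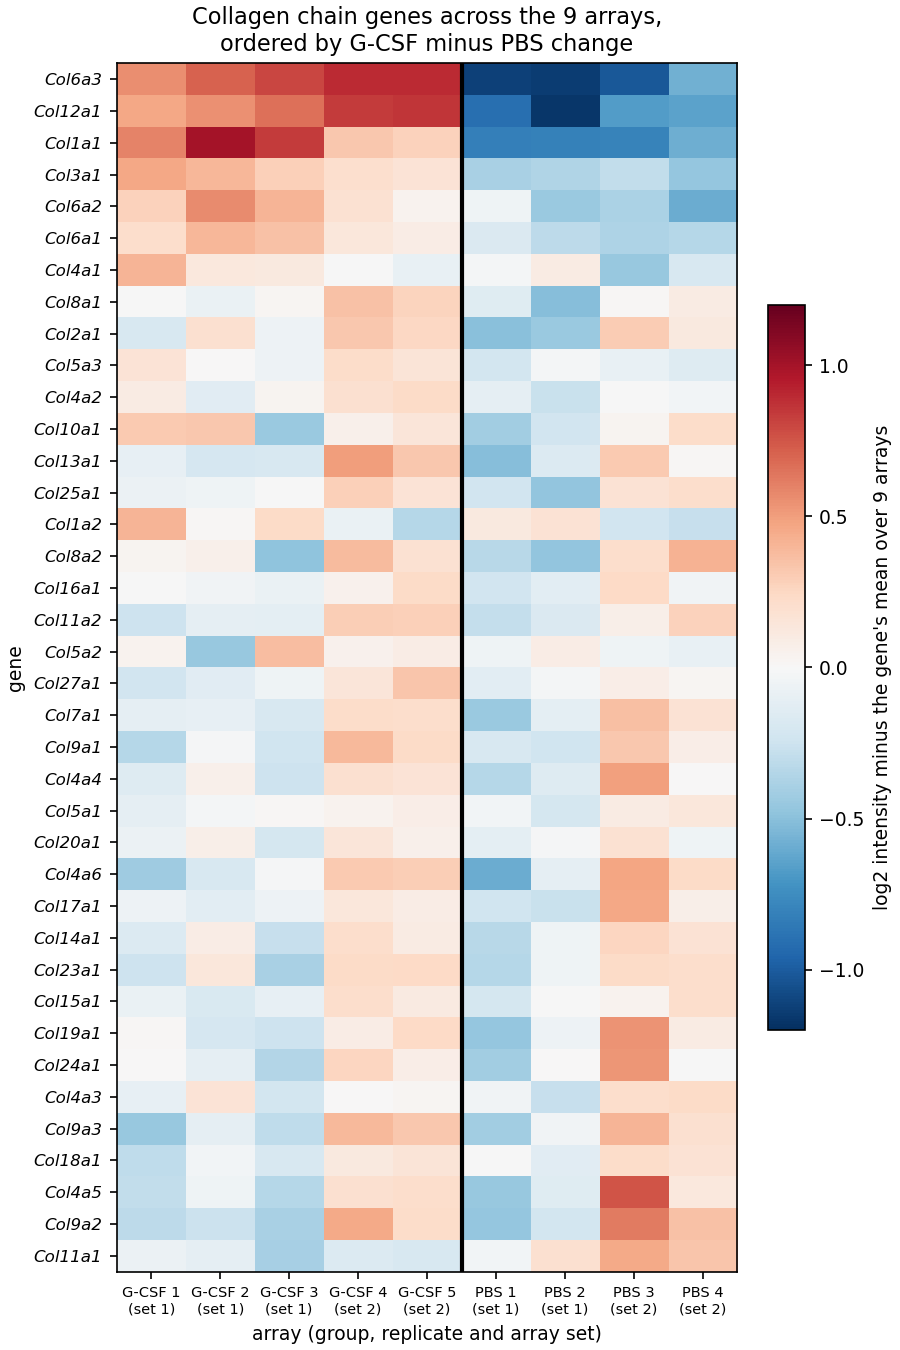
Log2 intensity of the 38 collagen chain genes minus each gene's mean over the 9 arrays (colour, red higher and blue lower), with G-CSF arrays left of the black line and PBS arrays right of it. Genes run from the largest rise at the top (Col6a3) to the largest decrease at the bottom (Col11a1). The top 6 rows divide by treatment, while many rows below divide by array set.

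Genes that make, bind or degrade collagen were counted in the same fit. Of 27 measured genes for modification, processing and cross-linking, 1 rose and 0 fell, where 0.743% of all probe sets rose and 0.877% fell. The 1 that rose was Bmp1, the protease that removes the C-terminal propeptide of fibrillar procollagens, at 9.19 ± 0.19 in G-CSF and 8.21 ± 0.29 in PBS (change 0.97, SE 0.17, limma adjusted p = 0.0111). The median change of these 27 was 0.23, against 0.01 for all probe sets, and 23 of the 27 had a positive change, as had 51.3% of all probe sets. With the array set as a block, 4 rose, namely Bmp1, Plod2, Pcolce and P4ha2, where 1.32% of all probe sets rose. Without the block, Plod2, Pcolce and P4ha2 did not pass (limma adjusted p = 0.679, 0.125 and 0.0997), and the groups of Plod2 overlapped. For Adamts3, a procollagen N-protease gene, the brightest of 16 probe sets changed by 0.23 (adjusted p = 0.962), while 1 other fell by 1.50 (limma adjusted p = 0.0241), so its probe sets disagreed. Of 9 collagen receptor genes, 0 rose and 0 fell by limma, with 1 higher and 1 lower at an unadjusted p under 0.05, against 4.41% and 4.81% of all probe sets. The discoidin receptor gene Ddr1 was at 6.07 ± 0.17 in G-CSF and 7.05 ± 0.60 in PBS and did not pass (change -0.98, limma adjusted p = 0.0732). Of the 9 fits with 1 array left out, it passed in 1, without PBS replicate 3 (limma adjusted p = 0.0129). The highest adjusted p of those fits was 0.221, without PBS replicate 1. Ddr1 also passed with the array set as a block (limma adjusted p = 0.0194).

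Of 8 genes for collagen degradation, 3 rose and 0 fell, with a median change of 0.82. Over all probe sets, 0.743% rose and 0.877% fell, with a median change of 0.01. Mmp13, the main interstitial collagenase of mice, was at 11.86 ± 0.19 in G-CSF and 10.15 ± 0.25 in PBS (3.26-fold, limma adjusted p = 0.000157). Mmp2 and Mmp9, gelatinases that cut denatured collagen and collagen IV, rose 2.96-fold (limma adjusted p = 0.00378) and 3.12-fold (limma adjusted p = 0.0257). Mmp9 kept its call in only 3 of the 9 sets of arrays with 1 omitted, and its adjusted p was highest, at 0.0792, when PBS replicate 4 was omitted. Mmp8 and Mmp9 are also genes of neutrophils, and Mmp8 (change 1.18, limma adjusted p = 0.0876) is among the neutrophil markers counted below. With the array set as a block Mmp8 passed too (adjusted p = 0.0157), which made 4 degradation genes that rose, where 1.32% of all probe sets rose.

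**Figure D5:**
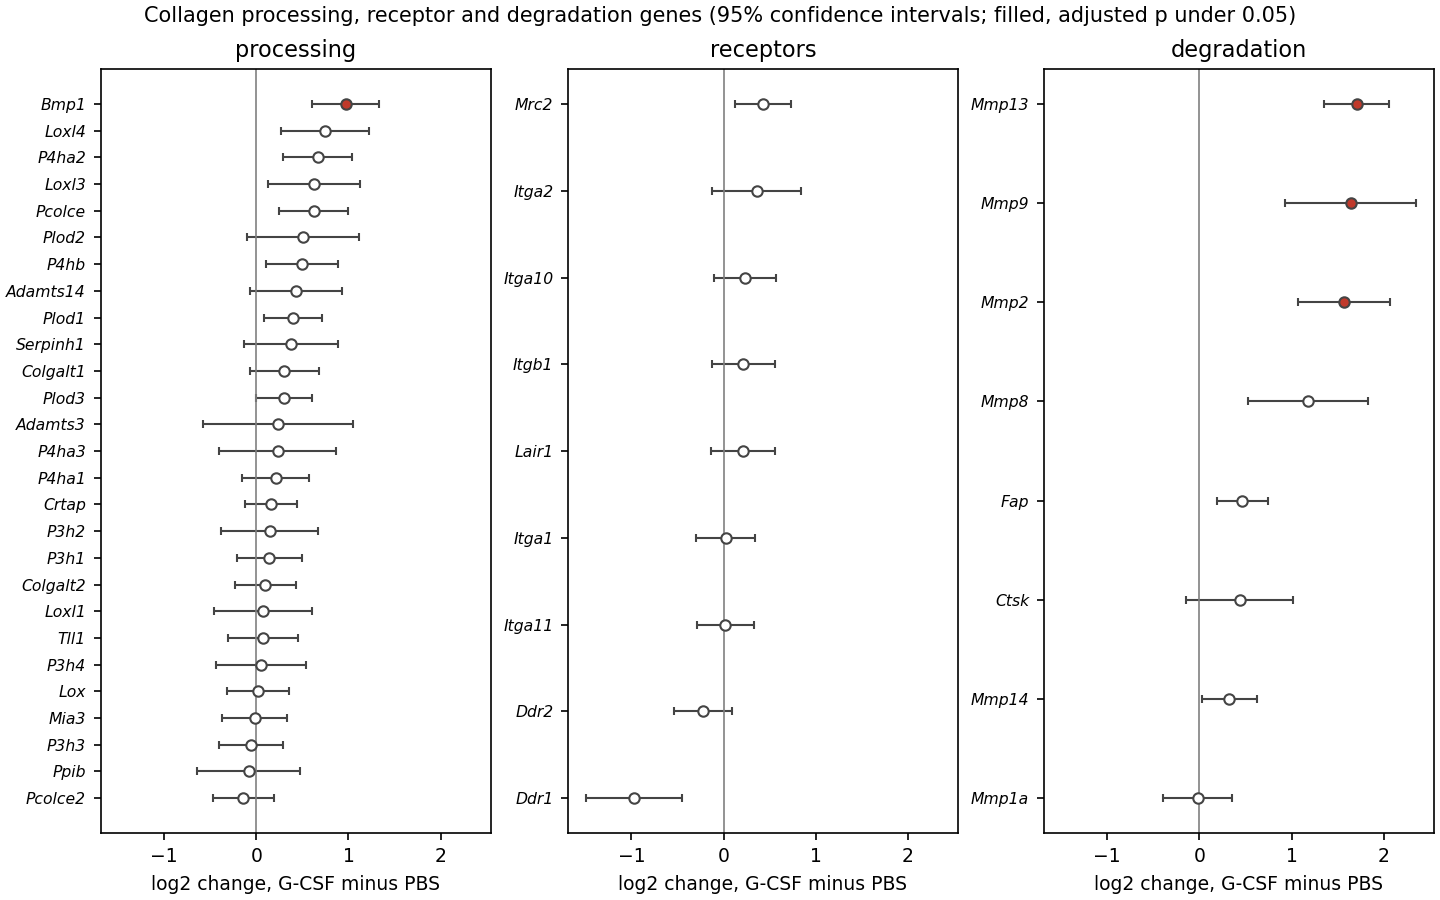
Change (G-CSF minus PBS, log2, horizontal axis) with 95% confidence intervals of 27 collagen processing genes, 9 receptor genes and 8 degradation genes. Filled points passed an adjusted p of 0.05, which were Bmp1 in the first panel and Mmp13, Mmp9 and Mmp2 in the third.

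Transcripts that mark other cell types differed between the same arrays. Their counts stand against 0.743% of all probe sets that rose and 0.877% that fell. The mean of 13 neutrophil markers was 8.76 to 9.58 in the G-CSF arrays and 7.997 to 9.37 in the PBS arrays, 1 of the 13 passed (Csf3r, which rose and kept its call in 3 of the 9 sets of arrays with 1 omitted), and the median change was 0.94. With the neutrophil mean as a covariate, Col6a3, Col12a1 and Col1a1 still passed (adjusted p = 0.00800, 0.0104 and 0.0399) while 0.119% of all probe sets rose, and Col3a1 did not (change 0.69, adjusted p = 0.310). The mean of 12 smooth muscle and pericyte markers was 6.52 to 6.65 in G-CSF and 5.995 to 6.16 in PBS, with 1 risen (Acta2). The mean of 9 fibroblast markers was 5.88 to 6.33 in G-CSF and 5.40 to 5.87 in PBS, with 2 risen, Dcn (0.98) and Fbln1 (0.85). Fbln1 kept its call in only 2 of the 9 sets of arrays with 1 omitted, with a highest adjusted p of 0.115. The ranges of the smooth muscle and pericyte and the fibroblast means did not overlap between the groups, and both were higher in G-CSF. The fibroblast ranges nearly touched, at 5.88 in the lowest G-CSF array and 5.87 in the highest PBS array. The osteoblast and CAR cell ranges, given next, did not overlap either, and both were lower in G-CSF. Of 6 measured osteoblast markers, 0 rose and 1 fell (Phex, which fell by 2.07), and their mean was 6.19 to 6.46 in G-CSF and 6.86 to 7.15 in PBS. Of 9 chondrocyte markers, 0 rose and 1 fell (Comp, which fell by 0.88 and kept its call in 1 of the 9 sets of arrays with 1 omitted), and of 10 endothelial markers 0 rose and 0 fell, with 1 higher and 1 lower at an unadjusted p under 0.05. Of 9 CAR cell markers, 0 rose and 4 fell (Adipoq, Vcam1, Kitl and Ebf3, of which Kitl kept its call in 3 and Ebf3 in 4 of those 9 sets), and their mean was 10.26 to 10.32 in G-CSF and 10.72 to 10.96 in PBS. With the array set as a block, Tagln (smooth muscle and pericyte, adjusted p = 0.0190), Emcn (endothelial, adjusted p = 0.0471) and the neutrophil markers Cxcr2 and Mmp8 (adjusted p = 0.00897 and 0.0157) also rose, and Foxc1 (CAR cell, adjusted p = 0.00871) also fell, while the counts of the other lists stayed as they were. In that fit, 1.32% of all probe sets rose. None of these added genes passed without the block, where the groups of Foxc1 overlapped (limma adjusted p = 0.214). Without the block, only 2 of the 10 endothelial markers had a positive change, and their median change was -0.18. The endothelial means overlapped, at 4.77 to 5.02 in G-CSF and 4.79 to 5.11 in PBS. A positive change was seen in 13 of 13 neutrophil, 11 of 12 smooth muscle and pericyte and 9 of 9 fibroblast markers. It was seen in 1 of 6 osteoblast, 5 of 9 chondrocyte and 2 of 9 CAR cell markers, against 51.3% of all probe sets. At an unadjusted limma p under 0.05, 8 neutrophil, 5 smooth muscle and pericyte and 2 fibroblast markers were higher, against 4.41%. Lower were 4 osteoblast, 2 chondrocyte and 6 CAR cell markers, against 4.81%. What part these cell types had in the collagen changes was not tested.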

How the data were processed

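RMA intensity values were deposited by the authors, and the submitters' processing notes name Affymetrix Expression Console for the Affymetrix Mouse Gene 1.0 ST arrays (version: not given in the sources used here). Per the labels' protocols, cells were sorted into TRIzol LS and the cDNA came from NuGEN's PicoSL Ovation system. The values ran from 1.73 to 15673, a linear scale, and log2 was taken here. RMA scales arrays to one another, so a change in total RNA per cell cannot be seen, and precision is limited by how few arrays there are. The deposited values still differed in spread, with log2 interquartile ranges of 2.45 (PBS replicate 3) to 2.99 (PBS replicate 1). Of 35553 probe sets, 21789 had a single symbol in the platform annotation and were tested, with no filter on low values.

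G-CSF was compared with PBS by limma 3.58.1 in R 4.3.3 (lmFit and eBayes, two-sided, no covariates), with Benjamini-Hochberg adjustment over all 21789. For a gene with several probe sets, the one with the highest mean spoke for it. Partner chains were compared by an exact permutation test over 126 splits of the arrays. Both steps were tested on simulated data. By the naming rule, array values were given for genes that passed, their partners, 12 genes chosen by role and the 4 brightest, and pathway genes that passed were named. Named after their values were seen were Col11a1, Col6a4, Col6a5, Col6a6, Ddr1, Mmp8, P4ha2, Plod2, Pcolce, Adamts3, Tagln, Emcn, Cxcr2 and Foxc1. The naming rule did not cover cell type markers. Those named because they passed were Csf3r, Acta2, Dcn, Fbln1, Phex, Comp, Adipoq, Vcam1, Kitl and Ebf3. The members, classes, lists, tests and alternatives were chosen with earlier results of these data known, so the rises of Col1a1, Col6a3 and Col12a1 are no independent support. Alternatives changed the scaling, probe filter, variance model, array weights, blocks, covariate, threshold and arrays included, and the averaging of G-CSF replicates 4 and 5 was added after the data were seen.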

Additional observations from a re-analysis of the deposited data

Results flagged for a closer look

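In the PBS group, 1 array stood far from the others for Col1a1. Its level was 6.95 in PBS replicate 4, where the next PBS array was at 6.74, and this gap took 0.927 of the range of the 4 PBS arrays, above Dixon's critical value for 4 samples. The array was still below the lowest G-CSF array. Of 76 gene and group combinations examined in this way, 1 stood out, where chance gives about 1 in 20.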

How the results depend on the processing

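The count of 4 collagen genes that rose was 3 to 6 under the alternatives, except 2 (Col6a3 and Col12a1) within array set 2 alone, which has 2 arrays a group. It was 6 with the array set as a block, 3 with the neutrophil marker mean as a covariate, 4 with G-CSF replicates 4 and 5 averaged, an alternative chosen after seeing the data, and 3 to 4 with 1 array left out; no gene fell in any of these fits. Of 96 values of the 4 genes under alternatives, 85 kept their call, 11 lost it and 0 changed sign, and 10 of the 11 were those of Col3a1. Of 901 values of the 38 genes, 125 changed sign without passing, all of genes that did not pass. The causes were not tested. The replicate numbers in the titles did not pair the arrays (correlations of deviations 0.28, 0.14, -0.28 and 0.35), and with the replicate block, in which G-CSF replicate 5 has no partner and adds nothing, 3 genes rose (Col3a1 at 0.71, limma adjusted p = 0.0978). The 3 pairs of partner chains stayed at 3 under a further quantile normalization. With the array set as a block, 4 processing genes and 4 degradation genes (Mmp8 added) rose and 1 receptor gene (Ddr1) fell, where 1.32% of all probe sets rose. With 1 array left out, the receptor genes that fell numbered 0 to 1, the degradation genes that rose 2 to 3, the fibrillar median ran from 0.0433 to 0.135 and the beaded filament median from 0.589 to 0.770.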
